A study of Mus musculus with 8 samples.

Results

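Mouse CD4+ T cells sorted as EGFP-positive from animals with a mutant Foxp3 allele were compared with EGFP-positive cells from animals with the wild-type (WT) allele, 3 arrays against 3 of the 8 arrays in the series. The members were chosen by their titles: those of the mutant group name the allele delta, those of the WT group name Foxp3 without delta, and both carry the EGFP-positive mark. In both groups an enhanced green fluorescent protein (EGFP) reporter was tagged to the Foxp3 allele, and the series design describes hemizygous male mice, so a cell has a single Foxp3 allele. The series title describes T cells that lack functional Foxp3 protein, while the labels name the mutant only as delta and do not describe the change. The other 2 arrays of the series are of EGFP-negative CD4+ T cells, 1 from each allele, and serve here as side values. Strain, age and tissue are not stated, and no label says that arrays of a group came from different mice, so each p-value reflects only how far these arrays spread, which may be technical. All 45037 probe sets other than the 64 control probe sets were tested, and 18193 genes were each read from their probe set of highest mean level. A level is a log2 intensity, and a difference is the mean of the mutant group minus that of the WT group on the log2 scale, so that 1 is a 2-fold change.

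Foxp3 is a forkhead transcription factor encoded on the X chromosome. It is expressed by regulatory T cells, a CD4+ lineage that restrains other T cells through receptors such as CTLA-4, capture of interleukin-2 (IL-2), adenosine production and inhibitory cytokines, and its loss in mice and humans leads to fatal autoimmunity. A reporter in the locus marks cells that transcribe the gene whether or not the protein works, and so allows cells that have switched on the Foxp3 gene to be profiled without the protein.

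The targeted gene was examined first. The Foxp3 probe set read 4.75, 4.86 and 4.64 in the 3 WT arrays and 11.10, 11.51 and 11.21 in the 3 mutant arrays, against 4.52 in the WT and 6.14 in the mutant EGFP-negative array. The WT EGFP-positive arrays thus lay at the level of the WT EGFP-negative array, which goes against their label, and no source states where the probes lie relative to the tag or the altered part. The probe set therefore does not check the labels, the groups are called WT-labelled and mutant-labelled throughout, and every direction below rests on these labels. Other genes did separate the WT-labelled sorts: Ikzf2, encoding the Treg-associated factor Helios, was at 12.26, 12.13 and 12.09 in the WT-labelled EGFP-positive arrays and at 7.98 in the WT-labelled EGFP-negative array. The mutant-labelled EGFP-negative array was far higher in Ikzf2 than the WT-labelled one, so this gene separated the mutant-labelled sorts much less. Cd4 read between 11.07 and 11.42 on all 8 arrays, and Cd3d, Cd3e and Cd3g, the CD3 chains of the T cell receptor complex, did not pass the test between the groups.

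Among the 8 CD4 T cell markers, 3 fell by less than 2-fold, namely Cd28 (-0.66; adjusted p 0.11 and 0.099 without WT-labelled arrays 1 and 3 and 0.096 and 0.081 without mutant-labelled arrays 1 and 3), Cd247 (-0.66) and Cd5, and the number that fell was 1 and 1 without WT-labelled arrays 1 and 3 and 1 and 1 without mutant-labelled arrays 1 and 3. B cell markers averaged 5.96 to 6.37 in the WT-labelled and 5.63 to 5.74 in the mutant-labelled arrays, with 2 of 12 lower (Ighm, -2.24, with adjusted p 0.052 without mutant-labelled array 1, and Cd72, -1.54), although the probe sets for Ighm disagreed in sign. The number of B cell markers that fell was 4 without WT-labelled array 2 and 1 without mutant-labelled array 1. Jchain, the joining chain of antibodies made by plasma cells and chosen after its values were seen, read 7.71, 8.45 and 10.34 in the WT-labelled and 6.18, 4.59 and 7.29 in the mutant-labelled arrays (-2.82, SE 0.80, adjusted p = 0.061), and 10.11 and 6.49 in the EGFP-negative arrays. Myeloid markers averaged 6.19 to 6.71 and 6.22 to 6.74, with 1 of 16 higher (Cebpa, 0.91, adjusted p 0.079, 0.059 and 0.064 without mutant-labelled arrays 1, 2 and 3), against 10.4% of all genes. The neutrophil genes S100a8 (4.95, 5.72 and 4.24 in the WT-labelled and 7.78, 5.07 and 7.20 in the mutant-labelled arrays) and S100a9 did not pass with all arrays. Both were high in mutant-labelled arrays 1 and 3 only, and at 6.97 and 7.19 in the mutant-labelled EGFP-negative array. Without mutant-labelled array 2, 2 myeloid markers rose, Cebpa not among them, and without mutant-labelled arrays 1 and 3 the number was 0 and 0.

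Certain arrays stood apart. WT-labelled array 2 correlated at 0.980 and 0.981 with the other WT-labelled EGFP-positive arrays, which correlated at 0.992 with each other, and at 0.981 with the WT-labelled EGFP-negative array. Its immediate-early genes, which respond within minutes to stimulation and to handling, averaged 9.31 against 10.84 and 11.01, and mutant-labelled array 3 was also low in them (8.85 against 10.07 and 9.97). WT-labelled array 3 went against the male sex in the design. Xist, the RNA that coats the inactive X chromosome of females, read 6.18, 6.06 and 11.43 in the WT-labelled arrays, 6.36, 6.48 and 7.05 in the mutant-labelled arrays and 9.81 in the WT-labelled EGFP-negative array, and 6.19 in the mutant-labelled one. The Y-linked gene Eif2s3y was lowest in the same array, at 10.01, 10.12 and 8.80 in the WT-labelled arrays, but not at background. Results are therefore given with all arrays and without WT-labelled array 2 or 3, in that order where a pair of values follows a count.

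**Figure D1:**
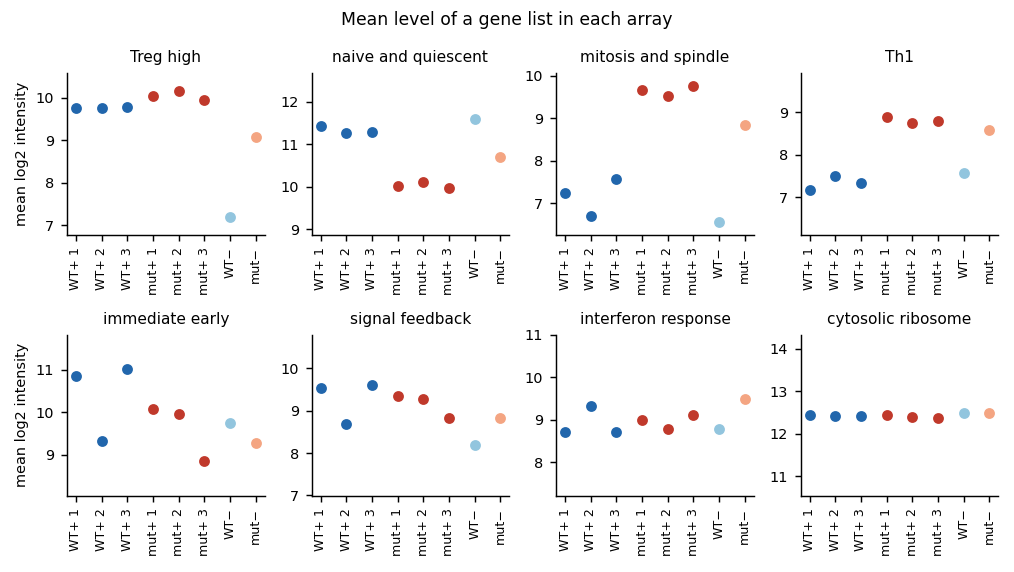
Mean log2 intensity of 8 gene lists (vertical axis, the same span of log2 units in each panel) in each of the 8 arrays (horizontal axis; WT+ and mut+ are the EGFP-positive arrays 1 to 3, WT− and mut− the single EGFP-negative arrays). Each point is the mean over the measured genes of a list in 1 array. WT-labelled array 2 is at 9.31 in the immediate early panel against 10.84 and 11.01 in the other WT-labelled EGFP-positive arrays, and stands with them at 9.75 to 9.78 in the Treg high panel.

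In total, 5734 of 45037 probe sets (12.7%) passed an adjusted p of 0.05 (limma, Benjamini-Hochberg method applied to every probe set tested), 3308 higher (7.35%) and 2426 lower (5.39%) in the mutant-labelled arrays. Counted as genes, 2993 of 18193 passed (16.5%), 1897 higher (10.4%) and 1096 lower (6.02%), and the median difference over all genes was 0.02. The gene counts were 2160 higher and 1307 lower without WT-labelled array 2, and 1342 and 740 without WT-labelled array 3. Over all fits that left out 1 array they ran from 1206 to 2160 and from 598 to 1307. Counts for the gene lists stand beside these shares of all genes, 10.4% higher and 6.02% lower. The all-gene counts also move when an array is left out, so a moved list count is not by itself particular to that list. At least 2-fold changes were called for 713 genes upward (3.92%) and 339 downward (1.86%). The 3 arrays of a group lay wholly above or below those of the other for 34.2% of genes. A gene was counted as kept where the 95% interval of its difference lay within 2-fold either way, as for 15542 genes (85.4%). A gene can be called and kept where the change is small but well measured. Probe sets of 1 gene did not always move together: of the 224 genes named by rule that passed, 136 had several probe sets, and for 43 of these another probe set differed in the other direction (17) or by less than 25% of the difference given (26), which is stated beside the gene or here for those whose values are given. The probe set that moved least differed by 0.17 for Acaca, -0.32 for Cbx7, 0.23 for Ccr1, 0.31 for Cd160, -0.252 for Dnajb4, 0.90 for Dscc1, 0.72 for Dsg2, 0.57 for Esco2, -0.11 for Mrpl51, 0.06 for Psmc1, 0.15 for Sema7a and 0.42 for Ttk. In bulk RNA of a sort, fewer cells of a type and less RNA per cell cannot be told apart.

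Regulatory T cell genes split into lost, kept and gained sets. Of 47 measured genes of the regulatory T cell (Treg) signature, 13 fell (17 and 10 without WT-labelled array 2 or 3), 15 rose (15 and 13) and 19 did not pass, with a median difference of -0.053 beside 0.02 over all genes. The falls numbered 8 without WT-labelled array 1 and 6 without mutant-labelled array 1. The list as a whole averaged 9.75, 9.75 and 9.78 in the WT-labelled arrays and 10.05, 10.16 and 9.95 in the mutant-labelled arrays, against 7.20 in the WT-labelled and 9.09 in the mutant-labelled EGFP-negative array. This mean counts the Foxp3 probe set, whose difference of 6.52 goes against the WT label, and the large rise of Gzmb described below. By sign, 22 of the 47 genes were higher and 25 lower in the mutant-labelled arrays, so the higher mean is no rise of the list in general. Every EGFP-positive array of either label thus stood above both EGFP-negative arrays in the mean of these genes.

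Of the 13 genes that fell with all arrays 11 encode cell surface proteins, the exceptions being Capg and Ecm1. Itgb8, the integrin chain that activates latent TGF-beta, read 7.47, 8.55 and 7.13 in the WT-labelled and 5.61, 5.88 and 5.70 in the mutant-labelled arrays (-1.99, SE 0.33, adjusted p = 0.0074), a 3.96-fold fall without overlap. Gpr83, an orphan G protein-coupled receptor marking regulatory T cells, went from 11.42, 12.24 and 11.49 to 9.68, 9.46 and 10.21 (-1.93, SE 0.27, adjusted p = 0.0033), and WT-labelled array 2 was the highest for both genes. Itgae, the alpha chain of CD103 that binds E-cadherin in epithelia, went from 9.72, 10.39 and 9.18 to 8.21, 8.504 and 7.39 (-1.73, SE 0.36, adjusted p = 0.019). The levels of Itgae in the mutant-labelled arrays nevertheless stayed above those of either EGFP-negative array, at 4.66 and 6.31. Nt5e, the CD73 enzyme that makes adenosine from AMP, fell 2.8-fold, from 9.80, 10.23 and 9.90 to 8.75, 8.24 and 8.48 (-1.49, SE 0.17, adjusted p = 0.0015), although another probe set of the gene did not fall. Nrp1, the semaphorin receptor neuropilin 1 and a marker of thymus-derived regulatory T cells, went from 10.996, 11.64 and 10.70 to 9.55, 10.17 and 9.47 (-1.39, SE 0.27, adjusted p = 0.015). Klrg1, an inhibitory cadherin receptor of differentiated cells, went from 9.45, 9.76 and 9.54 to 8.81, 8.27 and 7.99 (-1.23, SE 0.21, adjusted p = 0.0081).

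Il2ra, the high-affinity IL-2 receptor chain CD25, was reduced but far from absent. It read 9.995, 10.02 and 9.82 in the WT-labelled and 9.06, 9.45 and 9.07 in the mutant-labelled arrays (-0.75, SE 0.14, adjusted p = 0.012), against 5.38 and 7.47 in the EGFP-negative arrays. The actin-capping gene Capg (-0.79, with another probe set at 0.70), the TGF-beta receptor Tgfbr1 (-0.75), the secreted matrix protein Ecm1 (-0.71), the costimulatory receptor Tnfrsf9 (-0.57, with another probe set at -0.03), the folate receptor FR4 gene Izumo1r (-0.56) and Cd5, a brake on antigen receptor signals (-0.45), fell by less than 2-fold. Leaving out single arrays ended several of these calls. Adjusted p was 0.060 without mutant-labelled array 1 for Capg, 0.068 without mutant-labelled array 1 for Nrp1, 0.066 without WT-labelled array 1 and 0.061 without mutant-labelled array 1 for Itgae and 0.051 without WT-labelled array 1 and 0.053 without mutant-labelled array 1 for Il2ra. For Izumo1r it was 0.064 without WT-labelled array 1 and 0.057 without mutant-labelled array 2. For Ecm1 it was 0.064 and 0.066 without WT-labelled arrays 1 and 3 and 0.075 and 0.062 without mutant-labelled arrays 1 and 2, and for Tnfrsf9 it was 0.089 without WT-labelled array 3 and 0.086 and 0.075 without mutant-labelled arrays 1 and 3. Cd5 passed only with all arrays and without WT-labelled array 2, with 0.053 to 0.092 in the other fits. Itgb8, Gpr83, Nt5e, Klrg1 and Tgfbr1 kept their calls in every such fit.

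Of the 47 genes, 17 were kept within 2-fold, a smaller share than the 85.4% of all genes that were kept. Of these 17, 12 did not pass and 5 were small called changes (Cd5, Izumo1r, Tnfrsf9, Batf and Glrx). Ikzf2 had the narrowest interval of the 12: its level of 12.26, 12.13 and 12.09 in the WT-labelled arrays and 12.12, 12.11 and 12.09 in the mutant-labelled arrays left a difference of -0.053 with a 95% interval of -0.29 to 0.19. Tnfrsf4, the costimulatory receptor OX40, read 11.67, 12.02 and 11.85 and 11.81, 12.07 and 11.93 (interval -0.22 to 0.40). Tnfrsf18, the related receptor GITR, read 11.32, 11.57 and 11.39 and 11.08, 11.62 and 11.22 (interval -0.49 to 0.249). The groups overlapped for each of these 3 genes. Ikzf4, the Ikaros-family factor Eos that partners with Foxp3, was at 8.87, 8.93 and 8.998 and 8.74, 8.29 and 8.70 (interval -0.69 to -0.02) without overlap, and did not pass. Intervals within 2-fold were also found for Il2rb, the shared IL-2 and IL-15 receptor chain (-0.47 to 0.52), Cd83, a stabiliser of surface MHC class II (-0.28 to 0.55), the signalling inhibitors Socs2 (-0.60 to 0.196) and Cish (0.14 to 0.73), the TNF receptor Tnfrsf1b (-0.83 to 0.22), the prostaglandin receptor Ptger4 (-0.42 to 0.19), the calcium-binding protein S100a6 (-0.254 to 0.58) and the Rac activator Swap70 (-0.84 to -0.053). Cish passed without mutant-labelled array 3 (adjusted p = 0.044).

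For 6 of the Treg genes the data did not settle the direction, as their intervals crossed 0 and ran past 2-fold. WT-labelled array 2 was far below the other WT-labelled arrays for Ctla4, the inhibitory receptor that removes CD80 and CD86 from antigen-presenting cells, at 12.33, 10.12 and 12.25 against 11.21, 11.53 and 10.12 in the mutant-labelled arrays. The same array was low for the cytokine Il10 (7.92, 5.22 and 8.19 against 8.61, 8.90 and 7.25) and the phosphatase Dusp4 (10.97, 9.01 and 10.91 against 9.75, 9.42 and 9.59). The zinc finger gene Plagl1 (10.27, 8.10 and 10.23 against 8.92, 8.53 and 8.93) and the G protein regulator Rgs16 (9.35, 6.84 and 9.65 against 8.84, 8.63 and 8.26) showed it too, as did the activation factor Irf4 (9.49, 8.34 and 9.82 against 9.56, 9.31 and 9.81). With all arrays none passed, and without WT-labelled array 2 the difference was -1.34 for Ctla4 (adjusted p = 0.043), -1.35 for Dusp4 (0.00083), -1.46 for Plagl1 (0.0010) and -0.93 for Rgs16 (0.015). Il10 (0.204, 0.84) and Irf4 (-0.098, 0.81) did not pass there. S100a4, a motility-linked calcium binder, did not overlap between groups (11.54, 12.09 and 11.32 against 11.01, 11.13 and 10.83) but missed the threshold (-0.66, SE 0.2001, adjusted p = 0.076).

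The 15 Treg genes that rose count the Foxp3 probe set, whose reading goes against the WT label as given above, and include effector molecules of suppression. Gzmb, the granzyme that regulatory T cells share with cytotoxic cells, read 7.56, 7.59 and 7.64 in the WT-labelled and 12.49, 12.21 and 12.15 in the mutant-labelled arrays, 25.8-fold higher (4.69, SE 0.12, adjusted p = 6.9e-06). Penk, the precursor of the opioid peptide enkephalin, went from 9.05, 9.67 and 9.12 to 11.86, 12.31 and 12.04 (2.79, SE 0.196, adjusted p = 0.00022). Ebi3, a subunit of the cytokines IL-27 and IL-35, went from 7.39, 7.54 and 7.52 to 9.97, 10.54 and 10.17 (2.74, SE 0.16, adjusted p = 0.00011). For all of these the lowest mutant-labelled array was more than 4-fold above the highest WT-labelled array. Entpd1, the CD39 enzyme that acts before CD73 on extracellular ATP, went from 7.59, 8.06 and 7.53 to 9.05, 9.36 and 9.27 (1.497, SE 0.17, adjusted p = 0.0014), so the 2 steps of adenosine production moved in opposite directions. Prdm1, encoding the effector factor Blimp-1, read 7.23, 8.25 and 7.48 and 8.90, 9.35 and 9.20 (1.4997, SE 0.26, adjusted p = 0.0087). Fgl2, a secreted inhibitory fibrinogen-like protein, read 5.69, 7.71 and 5.38 and 8.74, 9.002 and 8.45 (2.47, SE 0.55, adjusted p = 0.024), WT-labelled array 2 being nearest to the mutant level.

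Other gains were measured for the cathepsin inhibitor Cst7 (1.69), the chemokine receptor Ccr8 (1.32), the scaffold gene Frmd4b (1.03), the homeodomain protein Hopx (0.99), the costimulatory receptor Icos (0.83), the galectin Lgals1 (0.81), the AP-1 factor Batf (0.66) and the redox enzyme Glrx (0.62). Calls were lost in some leave-one-out fits, with adjusted p of 0.093 and 0.072 without WT-labelled arrays 1 and 3 and 0.087 and 0.089 without mutant-labelled arrays 1 and 2 for Fgl2. For Glrx it was 0.10 and 0.094 without WT-labelled arrays 1 and 3 and 0.075 and 0.098 without mutant-labelled arrays 1 and 2, and for Ccr8 0.057 without WT-labelled array 1 and 0.063 and 0.059 without mutant-labelled arrays 1 and 2. The other gained genes passed in each of these fits.

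**Figure D2:**
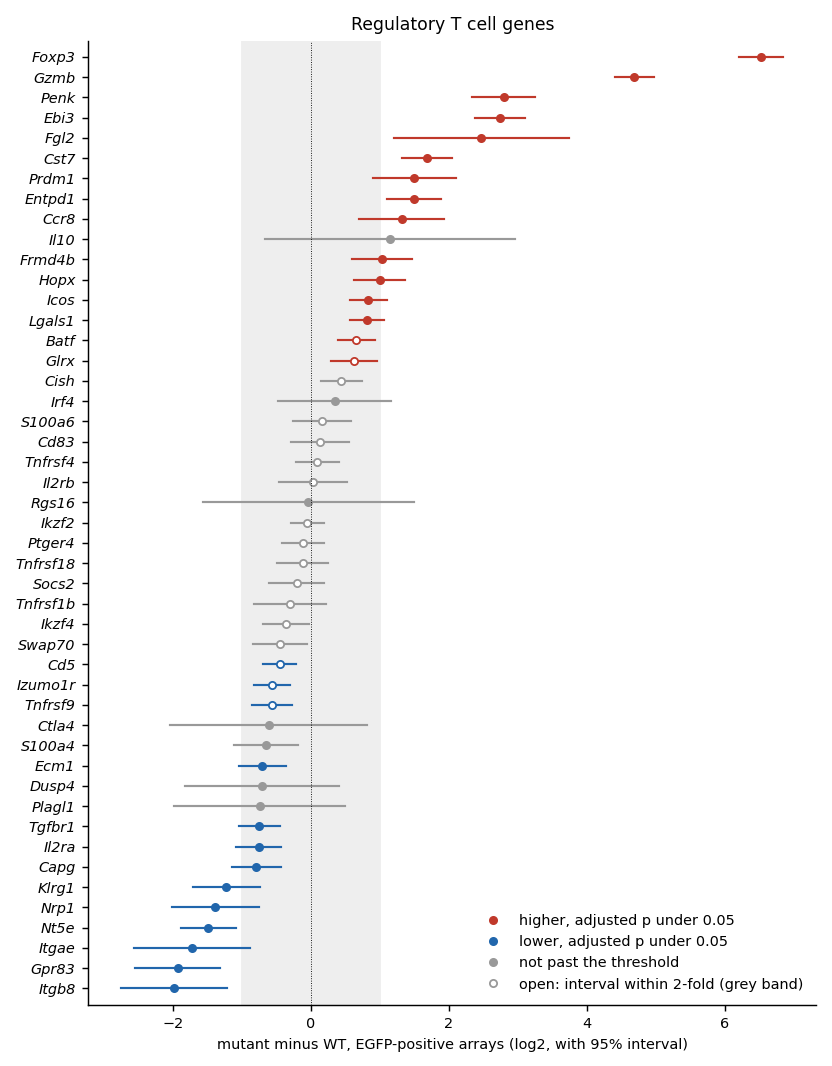
Difference between the mutant-labelled and WT-labelled EGFP-positive arrays (horizontal axis, log2, 3 arrays each) for the 47 measured regulatory T cell genes, with 95% intervals from limma. Red and blue genes passed the threshold upward and downward, grey genes did not, and open points mark intervals inside the grey 2-fold band; Itgb8 is lowest at -1.99 and Foxp3 highest at 6.52.

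Genes that regulatory T cells normally keep low moved in both directions: of 23, 7 rose and 7 fell (7 and 8 without WT-labelled array 2, 7 and 7 without array 3). The cytokine genes Il4, Ifng and Il21 led the rises and are described below. The falls were led by Prg4, a secreted lubricant proteoglycan (8.72, 9.53 and 8.93 against 5.22, 4.92 and 4.60, -4.14, SE 0.24, adjusted p = 0.00011), and Atp1b1, a sodium pump subunit (10.67, 10.40 and 10.56 against 7.36, 7.26 and 7.57, -3.15, SE 0.13, adjusted p = 3.6e-05). In the EGFP-negative arrays Atp1b1 was at 11.28 (WT-labelled) and 9.53 (mutant-labelled), above the EGFP-positive arrays of the same label. Another probe set of Atp1b1 differed by only -0.11.

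The EGFP-negative arrays gave a second view of the Treg signature. Between the WT-labelled EGFP-positive arrays and the WT-labelled EGFP-negative array, 186 genes passed as higher (1.02%) and 87 as lower (0.478%), a fit in which the single array, itself high in Xist, is assumed to vary like the others. The sets thus rest on that 1 array. These comparisons share the WT-labelled arrays with the comparison above, so only their own values are set side by side. Of the 186 genes, 30 (16.1%) were at least 2-fold higher in the mutant-labelled EGFP-positive arrays than in the mutant-labelled EGFP-negative array, against 0.753% of all genes, and for 146 (78.5%) all 3 mutant-labelled EGFP-positive arrays were above it, against 32.1% of all genes. The median difference of these genes was 1.70 between WT-labelled sorts, the contrast that chose them, and 0.52 between mutant-labelled sorts, which did not choose them. The 2 medians are thus not on equal terms. Their median difference between the 2 EGFP-negative arrays was 1.25, higher in the mutant-labelled one, and 106 of them were at least 2-fold higher there. The genes were chosen as low in the WT-labelled EGFP-negative array, which by itself raises this difference, so no conclusion is drawn from it. Of the 87 genes, 23 (26.4%) were at least 2-fold lower in the mutant-labelled EGFP-positive arrays than in their EGFP-negative array, against 0.984% of all genes.

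Several cytokines and chemokines of effector T cells rose. Il4, the signature type 2 cytokine, read 4.65, 4.84 and 4.73 in the WT-labelled and 9.85, 9.66 and 9.73 in the mutant-labelled arrays, 32.1-fold higher (5.005, SE 0.11, adjusted p = 3.0e-06). Ifng, the type 1 cytokine interferon gamma, went from 6.71, 5.44 and 6.58 to 10.69, 10.29 and 9.88 (4.05, SE 0.35, adjusted p = 0.00045). Il21, which helps B cells, went from 4.27, 4.45 and 4.56 to 8.18, 8.09 and 8.01 (3.67, SE 0.12, adjusted p = 1.4e-05), and its other probe set differed by 0.07. The groups were far apart for all 3, and the mutant-labelled EGFP-negative array was also high, at 9.13, 9.59 and 8.96, against 6.08, 6.85 and 5.70 in the WT-labelled EGFP-negative array. Among inflammatory CC chemokines, Ccl3 went from 4.21, 4.32 and 4.32 to 9.94, 8.99 and 9.52 (5.20, SE 0.22, adjusted p = 4.7e-05), Ccl5 was 16.7-fold higher (4.06, SE 0.16, adjusted p = 3.4e-05) and Ccl4 7.93-fold (2.99, SE 0.199, adjusted p = 0.00019). Across the 36 cytokine and chemokine genes measured, 18 rose (19 and 17 without WT-labelled array 2 or 3) and 1 fell, with a median of 0.86.

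Lists of effector lineages gave different counts. Of 17 Th1 genes 11 rose (11 and 9 without WT-labelled array 2 or 3) and 1 fell, with a median of 0.96. Tbx21, the Th1 factor T-bet, read 6.02, 6.50 and 5.52 and 9.66, 9.06 and 9.69 (3.46, SE 0.27, adjusted p = 0.00031). Cxcr6, a chemokine receptor of tissue T cells, read 5.71, 6.23 and 6.75 and 11.46, 11.51 and 11.13 (5.13, SE 0.2499, adjusted p = 6.4e-05), whereas it was already at 9.35 in the WT-labelled EGFP-negative array. The IL-18 receptor subunit Il18rap rose 4.1-fold. Of 16 Th2 genes 5 rose and 1 fell (6 and 4 higher without WT-labelled array 2 or 3), among them Il13 at 4.77, 4.92 and 4.82 against 7.02, 6.31 and 6.06 (1.62, SE 0.23, adjusted p = 0.0038) and, at a low level, Il3 (0.57, with adjusted p of 0.069 and 0.054 without WT-labelled arrays 1 and 3 and 0.067 and 0.066 without mutant-labelled arrays 1 and 2). The Th2 rises numbered 3 without WT-labelled array 1 and 3 and 3 without mutant-labelled arrays 1 and 2. Of 10 Th17 genes 2 rose, the aryl hydrocarbon receptor Ahr (2.39) and Batf, and the chemokine receptor Ccr6 fell (8.91, 9.63 and 8.81 against 7.05, 6.68 and 6.97, -2.21, SE 0.22, adjusted p = 0.00086). Whether these lists differ from each other was not tested.

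Epas1 had the largest rise after Foxp3 and Gzma among genes whose arrays did not overlap. This hypoxia-inducible factor, HIF-2 alpha, read 6.07, 5.64 and 6.27 in the WT-labelled and 11.66, 12.22 and 11.53 in the mutant-labelled arrays, 56-fold higher (5.81, SE 0.22, adjusted p = 3.1e-05), with 6.80 and 10.39 in the EGFP-negative arrays. The 3 mutant-labelled EGFP-positive arrays were above the mutant-labelled EGFP-negative array and far above every WT-labelled array.

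Among 21 cytotoxic granule genes 9 rose, 0 fell and 12 did not pass, with a median of 0.36 (10 and 7 higher without WT-labelled array 2 or 3). Kept within 2-fold were 13, against 85.4% of all genes. Gzma, a granzyme of killer cells, read 5.37, 5.83 and 5.47 and 11.89, 11.96 and 11.37, 72.5-fold higher (6.18, SE 0.19, adjusted p = 1.4e-05). Gzmk went from 5.26, 4.92 and 5.28 to 9.82, 10.23 and 9.66 (4.75, SE 0.18, adjusted p = 2.9e-05). Nkg7, a granule membrane protein, went from 7.20, 7.46 and 7.44 to 10.98, 11.03 and 11.07 (3.66, SE 0.11, adjusted p = 1.4e-05). No array of either label overlapped for these genes, and the mutant-labelled EGFP-negative array was high too, for example at 10.94 for Gzma. The death ligand Fasl rose by 1.62 and the granzyme inhibitor Serpinb6b rose by 1.87. Of 16 killer lectin-like receptors 4 rose, led by the inhibitory receptor chain Klrd1 (4.13, 4.16 and 4.49 against 7.10, 7.997 and 6.99, 3.10, SE 0.26, adjusted p = 0.00040), its partner Klrc1 (1.94) and the activating receptor Klrk1 (1.77), while Klrg1 fell.

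Markers of other killer cells are given beside these genes. The 6 NK cell markers averaged 5.52 to 5.82 in the WT-labelled and 5.59 to 5.85 in the mutant-labelled arrays, with Klrk1 higher and Txk lower (adjusted p for Txk 0.061, 0.059 and 0.10 without WT-labelled arrays 1, 2 and 3 and 0.12 and 0.095 without mutant-labelled arrays 1 and 2). Cd8a read 6.36, 5.22 and 6.29 and 8.498, 8.84 and 5.95 (1.81, SE 0.71, adjusted p = 0.16), high in mutant-labelled arrays 1 and 2 only, whereas Cd8b1 read 6.86, 6.66 and 7.13 and 6.82, 7.41 and 6.56 (0.048, SE 0.23, adjusted p = 0.94). Without mutant-labelled array 3 Cd8a passed as higher (adjusted p = 0.0055). The gamma delta chain gene Trgv4 rose (4.84, 5.45 and 5.35 against 7.19, 7.50 and 7.23, 2.09, SE 0.18, adjusted p = 0.00045), while another probe set of it differed by 0.03. The other 2 of the 3 such markers were slightly lower and did not pass, and the median of the 3 was -0.21. Their mean, 5.16 to 5.46 against 5.72 to 6.07, was thus higher through Trgv4 only. Levels of Gzma, Gzmk and Nkg7, given above, each varied by less than 2-fold among the mutant-labelled arrays. The part of other killer cells in the gains was not tested.

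**Figure D3:**
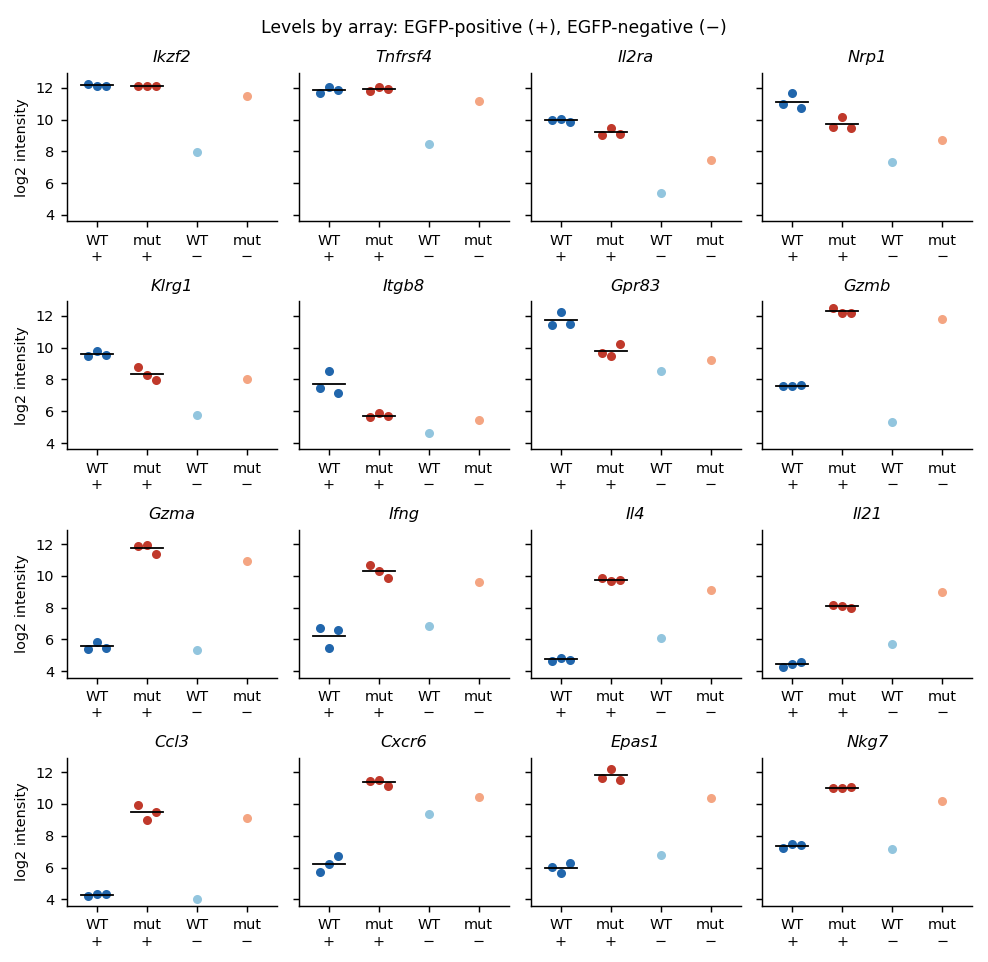
Log2 intensity (vertical axis, shared) of 16 genes in the WT-labelled (blue) and mutant-labelled (red) EGFP-positive arrays, 3 points each with the mean as a bar, and in the single EGFP-negative arrays (pale). Ikzf2 and Tnfrsf4 overlap between the red and blue points, Il2ra to Gpr83 are lower in red, and Gzmb to Nkg7 are higher in red.

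Of 14 follicular helper genes 6 rose, 1 fell and 7 did not pass. The rises included the HMG-box factor Tox2 (7.99, 8.36 and 8.47 against 10.33, 10.30 and 10.19, 2.002, SE 0.15, adjusted p = 0.00024; its other probe set differed by 0.04), the B cell coactivator Pou2af1 (1.76) and the adhesion receptor Slamf6 (1.02). Il6st, the shared IL-6 receptor chain gp130, fell (-1.36; adjusted p 0.056 without WT-labelled array 1 and 0.057 without mutant-labelled array 1). The mutant-labelled EGFP-negative array read 11.08 for Tox2, above every EGFP-positive array. Among 12 inhibitory receptors 4 rose, 2 fell and 6 did not pass, with a median of 0.08. Higher were Havcr2, encoding TIM-3 (4.36, 4.25 and 4.21 against 7.86, 8.02 and 6.93, 3.33, SE 0.27, adjusted p = 0.00032), Lag3 (7.07, 7.65 and 8.04 against 9.87, 10.06 and 9.82, 2.33, SE 0.23, adjusted p = 0.00078), Cd160 (2.45) and Pdcd1, encoding PD-1 (1.53). Klrg1 and Cd96 (-0.85) fell. Counts for both lists were the same or within 1 gene without WT-labelled array 2 or 3.

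Costimulatory receptors and TNF-family ligands were divided, with 6 of 21 higher and 3 lower (4 and 1 without WT-labelled array 3). The falls numbered 1 without WT-labelled array 3 and 0 and 0 without mutant-labelled arrays 1 and 3. Ligands accounted for 5 of the 6 rises, with Icos the other: Tnfsf14, the ligand LIGHT (5.54, 5.27 and 4.85 against 7.59, 7.76 and 7.997, 2.57, SE 0.19, adjusted p = 0.00027), Cd70 (1.52), Tnfsf8 (1.44), the 4-1BB ligand Tnfsf9 (1.17) and the RANK ligand Tnfsf11 (0.88). The receptor for CD70, Cd27, moved the other way (11.20, 11.73 and 10.89 against 10.37, 10.26 and 10.07, -1.04, SE 0.21, adjusted p = 0.017). Adjusted p exceeded 0.05 for Tnfsf11 (0.12 and 0.13 without WT-labelled arrays 1 and 3 and 0.14 and 0.14 without mutant-labelled arrays 1 and 2). It did so as well for Tnfsf8 (0.069 and 0.055 without WT-labelled arrays 1 and 3 and 0.13 and 0.11 without mutant-labelled arrays 1 and 3) and Cd27 (0.055 without WT-labelled array 1 and 0.052, 0.057 and 0.055 without mutant-labelled arrays 1, 2 and 3).

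The genes of resting, naive T cells were lower as a group. Of 26 measured, 20 fell and 0 rose, with a median of -1.33, and 20 fell without WT-labelled array 2 or 3 as well. Cd55, which protects cells from complement, read 8.30, 8.11 and 8.13 in the WT-labelled and 5.05, 4.64 and 4.53 in the mutant-labelled arrays, 10.8-fold lower (-3.44, SE 0.16, adjusted p = 5.5e-05). Sesn1, a stress protein that restrains mTORC1, read 10.87, 11.12 and 10.86 and 7.58, 7.84 and 8.04 (-3.13, SE 0.15, adjusted p = 6.4e-05). The IL-6 receptor Il6ra read 9.89, 10.19 and 10.05 and 7.90, 7.20 and 7.49 (-2.51, SE 0.18, adjusted p = 0.00025). Foxo1, the factor that sustains quiescence and lymph node homing, fell 3.51-fold, from 11.98, 12.03 and 12.17 to 10.48, 10.17 and 10.10 (-1.81, SE 0.13, adjusted p = 0.00025), with another probe set at 0.02, and the repressor Bach2 fell 3.33-fold. Tob1, an antiproliferative protein, fell too (-2.04; adjusted p 0.051 without WT-labelled array 1). The WT-labelled EGFP-negative array stood near the WT-labelled EGFP-positive arrays for the mean of this list (11.58 against 11.28 to 11.43), while the mutant-labelled EGFP-negative array was at 10.71, above the mutant-labelled EGFP-positive arrays (9.96 to 10.11).

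Receptors for tissue entry and positioning changed in both directions, 7 of 25 upward and 5 downward (7 and 6 without WT-labelled array 2, 5 and 5 without array 3). The rises numbered 4 without WT-labelled array 1 and 3 and 4 without mutant-labelled arrays 1 and 2. The gut receptor Gpr15 went from 6.77, 7.99 and 6.68 to 5.22, 5.58 and 4.78 (-1.96, SE 0.36, adjusted p = 0.011), and Ccr3 fell by 1.48, next to the falls of Ccr6 and Itgae. Cxcr6 and Ccr1 (1.32; adjusted p 0.057 without mutant-labelled array 1) rose. S1pr1, the sphingosine receptor for exit from lymph nodes, fell 2.9-fold (10.87, 11.05 and 10.94 against 9.05, 9.27 and 9.93, -1.53, SE 0.22, adjusted p = 0.0037). Among other G protein-coupled receptors, Gpr34 fell (6.45, 8.14 and 6.26 against 4.04, 4.07 and 4.35, -2.80, SE 0.45, adjusted p = 0.0063), with WT-labelled array 2 highest, and the leukotriene receptor Cysltr1 rose 9.31-fold (3.22, SE 0.35, adjusted p = 0.0012). P2ry10, a lysophospholipid receptor, fell by 0.998 (adjusted p 0.068 without WT-labelled array 1), and the thrombin receptor F2r rose by 1.10.

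Among 26 guidance molecules 4 rose and 4 fell (2 without mutant-labelled array 1 for the falls), against 10.4% and 6.02% of all genes. Ntn4, a secreted netrin, read 8.80, 8.91 and 8.82 in the WT-labelled and 6.33, 5.65 and 5.79 in the mutant-labelled arrays (-2.92, SE 0.18, adjusted p = 0.00014), with 5.09 and 5.19 in the EGFP-negative arrays. Ntn1 read 6.52, 6.68 and 6.64 and 4.35, 4.84 and 5.19 (-1.82, SE 0.204, adjusted p = 0.0013), with 4.99 and 4.72, and its other probe set differed by 0.04. The mutant-labelled levels of Ntn1 thus overlapped the EGFP-negative levels, and those of Ntn4 were slightly above them. The semaphorins Sema4f (1.86), Sema4a (1.13; adjusted p 0.053 without WT-labelled array 3) and Sema7a (0.99) rose. A further gene of this pattern was Cyp4f18, a lipid hydroxylase, at 7.82, 8.19 and 7.59 and 4.51, 4.23 and 4.36 (-3.502, SE 0.17, adjusted p = 6.4e-05), with 4.59 and 4.29 in the EGFP-negative arrays. Its other probe set differed by -0.03.

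Cell division genes were gained almost without exception. Of 57 mitosis and spindle genes 55 rose (55 and 54 without WT-labelled array 2 or 3), with a median difference of 2.62. The exceptions were Smc4, a condensin subunit (-0.55), and the kinesin Kif15, which did not pass (0.08). Of 50 DNA replication and repair genes 46 rose and none fell (47 and 45 higher without WT-labelled array 2 or 3), with a median of 1.79. The WT-labelled arrays differed among themselves in the mean of the mitosis genes, at 7.24, 6.69 and 7.57, against 9.66, 9.52 and 9.76 in the mutant-labelled arrays. The lowest was array 2, and the EGFP-negative arrays were at 6.56 (WT-labelled) and 8.85 (mutant-labelled). Between these single arrays 51 of the 57 mitosis genes were at least 2-fold higher in the mutant-labelled one, with a median difference of 2.415. The same held for 31 of the 50 replication and repair genes, against 3.78% of all genes.

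The promoters of the mitosis genes with the largest differences are shown because many genes of this group share a late cell cycle motif pair, the cell cycle homology region (CHR, TTTGAA) and CCAAT. The sequences run from 250 bases before to 50 bases after the start in RefSeq (build GRCm38.p6, the first promoter listed for each gene), with TTTGAA or its reverse complement TTCAAA, and CCAAT or its reverse complement ATTGG, in capitals. None of the matches of different motifs overlap.
Cdca5 (chr19:6084847-6085146, plus strand): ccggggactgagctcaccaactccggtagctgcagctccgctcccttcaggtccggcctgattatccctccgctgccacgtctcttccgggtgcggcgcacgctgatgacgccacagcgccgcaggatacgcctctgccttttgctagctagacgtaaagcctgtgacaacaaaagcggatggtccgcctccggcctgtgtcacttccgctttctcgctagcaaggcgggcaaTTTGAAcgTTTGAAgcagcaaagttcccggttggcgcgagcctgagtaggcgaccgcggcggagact
Bub1 (chr2:127831810-127832109, minus strand): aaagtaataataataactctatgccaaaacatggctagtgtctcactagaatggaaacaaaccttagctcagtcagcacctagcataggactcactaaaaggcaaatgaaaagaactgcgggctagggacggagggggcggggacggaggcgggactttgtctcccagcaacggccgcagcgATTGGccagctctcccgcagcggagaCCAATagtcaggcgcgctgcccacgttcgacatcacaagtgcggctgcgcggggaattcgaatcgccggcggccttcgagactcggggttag
Nuf2 (chr1:169531415-169531714, minus strand): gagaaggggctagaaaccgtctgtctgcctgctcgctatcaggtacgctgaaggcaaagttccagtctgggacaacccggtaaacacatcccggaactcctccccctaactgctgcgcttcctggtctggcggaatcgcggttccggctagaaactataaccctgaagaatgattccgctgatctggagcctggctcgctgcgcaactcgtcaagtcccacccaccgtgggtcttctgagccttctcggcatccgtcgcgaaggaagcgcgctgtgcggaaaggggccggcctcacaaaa
Ttk (chr9:83834439-83834738, plus strand): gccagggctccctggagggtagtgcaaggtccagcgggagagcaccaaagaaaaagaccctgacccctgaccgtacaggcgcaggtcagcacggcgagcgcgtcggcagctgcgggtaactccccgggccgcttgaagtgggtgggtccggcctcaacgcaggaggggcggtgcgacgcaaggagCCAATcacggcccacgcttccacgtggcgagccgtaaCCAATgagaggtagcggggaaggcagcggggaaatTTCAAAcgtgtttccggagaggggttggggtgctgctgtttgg

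Cdca5 holds 2 CHR matches, Bub1 2 CCAAT matches, Ttk both motifs and Nuf2 neither. A promoter was found for 47 of the 57 genes, and 35 of these (74.5%) held the CHR letters, 34 (72.3%) CCAAT and 29 (61.7%) both. Over all 27025 genes with a promoter the shares were 18.1%, 37.9% and 7.12%. A match is a description of the letters and no evidence of binding in these cells.

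In the arrays, Cdca5, the cohesin regulator sororin, read 7.17, 5.72 and 7.99 in the WT-labelled and 10.88, 10.64 and 10.58 in the mutant-labelled arrays (3.74, SE 0.49, adjusted p = 0.0027). Bub1, a checkpoint kinase at the kinetochore, read 5.94, 4.96 and 6.62 and 9.49, 9.30 and 9.40 (3.55, SE 0.36, adjusted p = 0.00088). Nuf2, a kinetochore protein that grips microtubules, read 6.25, 5.69 and 6.69 and 9.71, 9.50 and 9.75 (3.44, SE 0.24, adjusted p = 0.00020). Array 2 was the lowest WT-labelled array for each of these genes, and none came near the mutant-labelled levels. Ttk, the checkpoint kinase MPS1, was 10.8-fold higher (3.43, SE 0.29, adjusted p = 0.00042), Aurkb, the kinase of the chromosomal passenger complex, 10.6-fold and Ccna2, cyclin A2, 9.9-fold. Among replication genes, Rad51ap1, a recombination factor, rose by 3.29 and Tk1, a thymidine kinase, rose by 3.24. Uhrf1, which carries DNA methylation through replication, rose by 3.19, and Cdc6, a loader of the replicative helicase, rose by 2.91.

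Upstream of division, 11 of 25 G1 regulators rose and 2 fell (11 and 3 without WT-labelled array 2, 12 and 2 without array 3). Cdkn1b, the quiescence inhibitor p27, went from 11.93, 11.40 and 11.43 to 10.41, 10.18 and 10.04 (-1.37, SE 0.17, adjusted p = 0.0023). The cyclins E, Ccne1 (2.18) and Ccne2 (2.30), and the G1 kinase Cdk6 (2.005) rose. An inhibitor of that kinase, Cdkn2b or p15, rose with them (5.15, 5.36 and 5.82 against 8.199, 7.82 and 7.74, 2.48, SE 0.19996, adjusted p = 0.00033).

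Metabolic and biosynthetic lists held more rises than falls. Of 27 glycolysis and hypoxia genes 14 rose and 3 fell, with 14 or 15 higher and 3 lower without WT-labelled array 2 or 3. Tpi1, triosephosphate isomerase, read 9.51, 9.73 and 9.80 and 11.89, 12.18 and 12.05 (2.36, SE 0.13, adjusted p = 8.6e-05), and hexokinase 2, Hk2, rose by 1.41. The hypoxia-regulated prolyl hydroxylase Egln3 rose (2.25), whereas P4ha1, a collagen prolyl hydroxylase (-1.503), and Ndrg1 (-1.70), both also hypoxia-inducible in many cells, fell. The glycolytic enzyme Pgk1 was among 4 of 12 genes often used as references that rose (1.07), with Gusb, Tubb5 and Hprt, while the median of the 12 was 0.08.

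Proteasome subunits rose in 26 of 36 cases (23 and 10 without WT-labelled array 2 or 3), led by the base ATPase Psmc1 (1.03). Mitochondrial ribosomal proteins rose in 36 of 70 (44 and 23), led by Mrpl51 (1.07), and respiratory chain subunits in 33 of 72 (32 and 13), led by Ndufc1 (0.83). Among these 3 lists none fell, and their medians were 0.48, 0.49 and 0.41. Proteasome rises numbered 11 and 10 without WT-labelled arrays 1 and 3 and 11, 13 and 14 without mutant-labelled arrays 1, 2 and 3. Mitochondrial ribosome rises numbered 18 and 23 without WT-labelled arrays 1 and 3 and 18, 23 and 22 without mutant-labelled arrays 1, 2 and 3. Respiratory chain rises numbered 6 and 13 without WT-labelled arrays 1 and 3 and 9, 11 and 13 without mutant-labelled arrays 1, 2 and 3. By contrast, only Rpl14 rose (0.73) among 43 cytosolic ribosomal proteins, with a median of -0.03. Kept within 2-fold were 41 of these 43, 29 of 36 proteasome, 55 of 70 mitochondrial ribosomal and 67 of 72 respiratory chain genes. The kept share over all genes was 85.4%. Of 29 sterol and fatty acid synthesis genes 10 rose (9 and 5), among them Acaca, acetyl-CoA carboxylase (1.02), and Pmvk of the mevalonate pathway (1.15). The sterol and fatty acid rises numbered 4 and 5 without WT-labelled arrays 1 and 3 and 5, 6 and 4 without mutant-labelled arrays 1, 2 and 3. Of 28 amino acid transport and mTORC1 genes 6 rose, 4 fell and 18 did not pass, with a median of 0.00, and the rises numbered 10 without WT-labelled array 2. Higher were the transporters Slc36a4 (1.09) and Slc38a1 (1.02), and lower were the mTORC1 regulators Sesn1, Flcn (-1.16, with another probe set at -0.13) and the small GTPase Rragd (7.64, 8.18 and 7.57 against 5.77, 5.86 and 6.06, -1.901, SE 0.18, adjusted p = 0.00064; another probe set differed by -0.101).

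Among T cell receptor signalling genes falls outnumbered rises. Of 42 T cell receptor signalling genes 13 fell and 3 rose (14 and 3 without WT-labelled array 2, 9 and 3 without array 3), with a median of -0.29. The shares over all genes were 6.02% and 10.4%. The falls numbered 8 without mutant-labelled array 1. Pag1, a raft adaptor that recruits the inhibitory kinase Csk, read 10.70, 10.73 and 10.51 and 9.32, 9.52 and 9.37 (-1.24, SE 0.12, adjusted p = 0.00062), with another probe set at 0.01. Trat1, which stabilises the receptor complex, read 9.11, 9.37 and 8.86 and 7.76, 7.64 and 7.404 (-1.52, SE 0.16, adjusted p = 0.0010). Themis, an adaptor needed for thymic selection, moved the other way, from 7.89, 7.79 and 8.18 to 9.15, 9.28 and 9.31 (1.29, SE 0.13, adjusted p = 0.00090). The adaptor Sit1 (-1.55), the Ras activator Sos1 (-1.26, with another probe set at -0.01) and the Tec-family kinase Txk (-1.19) also fell, but their adjusted p exceeded 0.05 in 3 to 5 of the 6 leave-one-out fits, with values of 0.15 and 0.13 without WT-labelled arrays 1 and 3 and 0.058, 0.14 and 0.12 without mutant-labelled arrays 1, 2 and 3 for Sit1 and 0.070 without WT-labelled array 1 and 0.077 and 0.068 without mutant-labelled arrays 1 and 2 for Sos1. For Txk the adjusted p was 0.061, 0.059 and 0.10 without WT-labelled arrays 1, 2 and 3 and 0.12 and 0.095 without mutant-labelled arrays 1 and 2.

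In the TGF-beta pathway, which shapes peripheral regulatory T cells, 9 of 20 genes fell and 2 rose (10 and 1 without WT-labelled array 2, 4 and 2 without array 3), with a median of -0.50. The falls numbered 5 and 4 without WT-labelled arrays 1 and 3 and 4 without mutant-labelled array 2. Besides Itgb8 and Tgfbr1 the falls included Smurf1, a ubiquitin ligase for the receptor (-0.81), in every leave-one-out fit, and Smad7, Skil and Smad4. The inhibitor Smad7 read 10.49, 9.23 and 10.22 and 8.72, 8.52 and 8.13 (-1.52, SE 0.32, adjusted p = 0.019), with adjusted p of 0.063 and 0.070 without WT-labelled arrays 1 and 3 and 0.060 and 0.058 without mutant-labelled arrays 2 and 3. For Skil, a SMAD corepressor (-1.05), it was 0.069 and 0.067 without WT-labelled arrays 1 and 3 and 0.069 without mutant-labelled array 2. For the common mediator Smad4 (-0.80) it was 0.050 without WT-labelled array 3 and 0.055 and 0.054 without mutant-labelled arrays 1 and 2. The ligand Tgfb3 rose by 1.04.

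Cytokine receptors and their kinases divided as well. Of 21 genes of the IL-2 family and STAT5 signalling 4 fell and 2 rose (6 and 3 without WT-labelled array 2, 2 and 2 without array 3). The share of rises was near the 10.4% of all genes, of which 6.02% fell. The falls numbered 1 and 2 without WT-labelled arrays 1 and 3 and 1 without mutant-labelled array 1. Stat5b, which carries the IL-2 signal to the nucleus, fell (10.43, 10.39 and 10.27 against 9.28, 9.74 and 9.56, -0.83, SE 0.14, adjusted p = 0.0079), while the survival kinase Pim2 rose by 0.996. The receptor Il4ra (-0.70) and the kinase Jak1 (-0.66) fell too, with adjusted p of 0.065 and 0.063 without WT-labelled arrays 1 and 3 and 0.053 and 0.064 without mutant-labelled arrays 1 and 2 for Il4ra and 0.059 and 0.052 without WT-labelled arrays 1 and 3 and 0.061 and 0.053 without mutant-labelled arrays 1 and 3 for Jak1. Among other cytokine receptors Il1r2, the decoy receptor for IL-1, went from 8.02, 7.52 and 7.87 to 10.31, 10.90 and 10.21 (2.67, SE 0.21, adjusted p = 0.00032), with 5.44 in the WT-labelled and 9.82 in the mutant-labelled EGFP-negative array. Il17rb, the IL-25 receptor, was highest in mutant-labelled array 2 (7.70, 9.75 and 7.28 against 5.58, 5.49 and 5.91 in the WT-labelled arrays, 2.59, SE 0.56, adjusted p = 0.022), and adjusted p was 0.081 and 0.059 without WT-labelled arrays 1 and 3 and 0.053 without mutant-labelled array 1. Il1rl2, the receptor for IL-36, rose by 1.23.

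Stimulus-dependent genes varied within the groups. Of 22 immediate-early genes 1 fell (Ier5, -0.95, adjusted p 0.13 and 0.12 without WT-labelled arrays 1 and 3 and 0.081 and 0.060 without mutant-labelled arrays 1 and 3) and 0 rose, but without WT-labelled array 2 9 fell and 2 rose, and 0 fell without array 3. The 9 included the orphan receptor Nr4a1, at 12.41, 10.46 and 12.61 against 11.12, 10.81 and 10.05 (-1.85, adjusted p = 0.0046 without array 2), and the 2 were Egr2 and Egr3; these genes were chosen after their values were seen. The signal feedback list had 2 of 24 lower with all arrays, 6 without WT-labelled array 2 and 0 without array 3. With all arrays this share was near the 6.02% of all genes. Its calls were the cytokine signal inhibitor Socs3 (-0.77; adjusted p 0.076 and 0.086 without WT-labelled arrays 1 and 3) and the G protein regulator Rgs3 (-0.60; adjusted p 0.074 and 0.074 without WT-labelled arrays 1 and 3 and 0.061 and 0.053 without mutant-labelled arrays 2 and 3).

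Heat shock genes fell in 6 of 27 cases and rose in 2 (5 and 2 without WT-labelled array 3), with the falls at 3 without WT-labelled array 1. The inducible HSP70 gene Hspa1b read 9.11, 10.76 and 7.74 and 6.19, 5.90 and 5.17 (-3.45, SE 0.67, adjusted p = 0.014; adjusted p 0.053 without WT-labelled array 1). Its near-identical copy Hspa1a read 6.51, 7.26 and 5.95 and 4.96, 5.10 and 4.56 (-1.70, SE 0.31, adjusted p = 0.011), and signal of the pair cannot be assigned with certainty. The WT-labelled arrays spread over 8-fold for Hspa1b, with array 2 highest. The cochaperone Bag3 fell by 1.0001. Among interferon response genes 4 of 36 rose (2, 8 and 2 without WT-labelled arrays 1, 2 and 3 and 2 and 2 without mutant-labelled arrays 1 and 3) and none fell. The share that rose was close to the 10.4% of all genes. Kept within 2-fold were 25 of the 36, against 85.4% of all genes. The list averaged 8.72, 9.31 and 8.72 in the WT-labelled and 8.99, 8.78 and 9.10 in the mutant-labelled arrays, the highest being WT-labelled array 2. Irf8, an interferon-regulated transcription factor, rose by 1.12 and the antiviral GTPase Mx1 rose by 1.07.

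Transcription factors of T cell lineages rose in 12 of 41 cases and fell in 3 (12 and 5 without WT-labelled array 2, 11 and 2 without array 3). Of all genes 10.4% rose and 6.02% fell, so the share of falls was near that of all genes. The falls numbered 1 and 5 without WT-labelled arrays 1 and 2 and 1 and 1 without mutant-labelled arrays 1 and 2. The paired E-protein inhibitors moved apart. Id2, linked to effector cells, read 10.05, 9.19 and 9.89 and 11.42, 11.65 and 11.13 (1.69, SE 0.24, adjusted p = 0.0037), and Id3, linked to naive cells, read 9.32, 10.27 and 9.18 and 7.55, 6.23 and 8.40 (-2.19, SE 0.53, adjusted p = 0.032). The fall of Id3 was uneven across mutant-labelled arrays, and its adjusted p was 0.081 and 0.063 without WT-labelled arrays 1 and 3 and 0.097 and 0.055 without mutant-labelled arrays 1 and 2. The vitamin D receptor Vdr rose by 2.03 and the cell cycle factor Mybl2 rose by 2.47.

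Chromatin regulators gave 5 rises and 7 falls among 30 (4 and 10 without WT-labelled array 2, 3 and 7 without array 3). The rises numbered 2 and 3 without WT-labelled arrays 1 and 3 and 2, 3 and 3 without mutant-labelled arrays 1, 2 and 3, and the falls 4 without WT-labelled array 1 and 4 and 4 without mutant-labelled arrays 1 and 2. The H3K27 methyltransferase Ezh2 rose (9.38, 9.29 and 9.77 against 10.77, 10.92 and 10.99, 1.41, SE 0.15, adjusted p = 0.0011), and so did the maintenance DNA methyltransferase Dnmt1 (1.11). The Polycomb reader Cbx7 (-1.44) and the acetyltransferase Kat2b (-0.87) fell. Among apoptosis and inflammatory caspase genes 6 of 28 rose and 2 fell. Casp4 went from 7.67, 8.93 and 8.08 to 9.98, 9.75 and 9.92 (1.66, SE 0.29, adjusted p = 0.0091) and Casp1 from 7.31, 8.97 and 7.62 to 10.05, 9.82 and 10.04 (2.01, SE 0.38, adjusted p = 0.013; adjusted p 0.052 without WT-labelled array 3 and 0.059 without mutant-labelled array 1). WT-labelled array 2 was nearest to the mutant level for both. The death effector Bak1 (1.12) and its activator Bid (1.06) rose, and the BH3-only gene Bbc3 fell (-1.08).

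The largest fall of any gene with separated arrays was that of H2-Ob. This gene encodes the beta chain of H2-O, which restrains peptide loading of MHC class II, and read 9.94, 10.37 and 9.66 in the WT-labelled and 5.602, 4.66 and 5.84 in the mutant-labelled arrays, 24.7-fold lower (-4.63, SE 0.31, adjusted p = 0.00020), with 9.01 and 6.60 in the EGFP-negative arrays. Its partner chain H2-Oa rose (7.83, 7.59 and 7.64 against 8.88, 8.66 and 8.76, 1.08, SE 0.12, adjusted p = 0.0012), as did the class II chain H2-Ab1 (1.23) and the peptide exchange chain H2-DMa (0.86; adjusted p 0.052 without WT-labelled array 1 and 0.055 without mutant-labelled array 1). In the B cell marker list the falls were of Ighm and Cd72, while Pax5, Cd79a and Ms4a1 did not pass with all arrays. Without WT-labelled array 2 the adjusted p of these was 0.90, 0.043 and 0.019, so that Cd79a and Ms4a1 passed there, both as lower. Ms4a1, the B cell surface protein CD20, read 5.51, 5.29 and 6.43 in the WT-labelled arrays, next to a median of 5.75 over all probe sets. Jchain, given above, lay lower in all 3 mutant-labelled arrays than in any WT-labelled one but did not pass. The part of B-lineage cells in the fall of H2-Ob was not tested.

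Among S100, annexin and galectin genes 6 of 21 rose and 1 fell. Lgals3, encoding galectin 3, went from 8.34, 8.35 and 8.74 to 10.93, 10.84 and 10.75 (2.36, SE 0.14, adjusted p = 0.00013), and Anxa2, encoding annexin A2, from 10.06, 9.77 and 10.31 to 11.77, 11.69 and 11.49 (1.604, SE 0.16, adjusted p = 0.00079), although another probe set of Anxa2 differed by -0.04. Both genes were nearly as high in the mutant-labelled EGFP-negative array, at 10.24 and 11.01, and low in the WT-labelled one, at 6.74 and 8.02. Lgals8 fell slightly (-0.67).

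Further genes complete the 20 highest and 20 lowest with separated arrays. On the high side were Dsg2, a desmosomal cadherin (5.51, 5.51 and 5.51 against 10.01, 9.78 and 9.52, 4.26, SE 0.14, adjusted p = 1.4e-05), the kinase gene Rps6ka6 (4.27), the signalling adaptor Pik3ap1 (3.64), Depdc1a (3.82) and the cohesion genes Esco2 (3.80) and Dscc1 (3.65). On the low side were the sialyltransferase St8sia6 (10.94, 11.13 and 11.02 against 8.496, 7.99 and 8.32, -2.76, SE 0.15, adjusted p = 8.4e-05), the cholesterol exporter Abca1 (-2.73), the tubulin Tubb2b (-2.72), the actin regulator Jmy (-2.62), the clock repressor Nr1d2 (-2.44), Slc49a4 (-2.41), Tent5a (-2.38) and the lysosomal protease Ctsl (-2.38). Other probe sets of Ctsl and Slc49a4 differed by 0.00 and -0.097. Dnajb4 (-2.85; adjusted p 0.056 without WT-labelled array 1 and 0.056 without mutant-labelled array 2) and the nucleotide sugar transporter Slc35d1 (-2.37; 0.055 to 0.067 without any array but WT-labelled array 2) were less steady, with WT-labelled array 2 far below the other WT-labelled arrays.

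**Figure D4:**
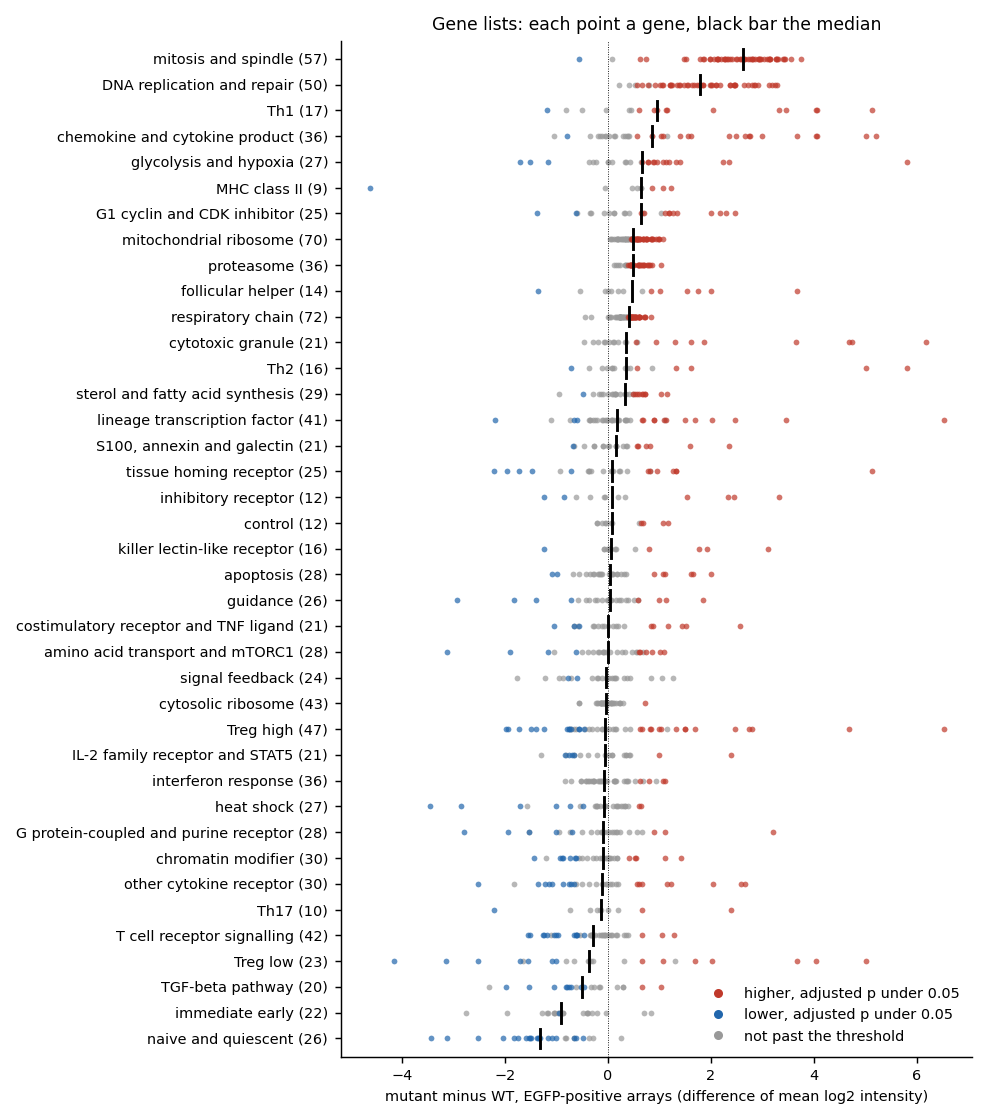
Difference between mutant-labelled and WT-labelled EGFP-positive arrays (horizontal axis, log2) for each measured gene of 39 lists (rows, number of genes in brackets, ordered by the median). Red and blue points passed the threshold upward and downward, grey points did not, and the black bar is the median, from 2.62 for mitosis and spindle to -1.33 for naive and quiescent.

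The same allele comparison could be read in the EGFP-negative arrays, which share no array with the EGFP-positive comparison but have 1 array each, so that differences between them are given as values. Over all genes, 688 (3.78%) were at least 2-fold higher and 189 (1.04%) at least 2-fold lower in the mutant-labelled EGFP-negative array. Of the 713 genes that rose at least 2-fold in EGFP-positive cells, 441 (61.9%) were also at least 2-fold higher there and 3 were lower. Of the 339 that fell at least 2-fold, 66 (19.5%) were at least 2-fold lower there and 6 higher. The gained genes Gzma, Il4 and Ccl3 differed by 5.63, 3.05 and 5.12 between the EGFP-negative arrays. Among losses, Prg4 and H2-Ob differed by -1.83 and -2.42 there, while Ntn4 (0.099) and Cyp4f18 (-0.30) were low in both EGFP-negative arrays. The Treg genes Nrp1 (1.36) and Klrg1 (2.31) fell between EGFP-positive groups but were higher in the mutant-labelled EGFP-negative array than in the WT-labelled one. Across the list of 47 Treg genes, 34 were at least 2-fold higher in the mutant-labelled EGFP-negative array and none lower.

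**Figure D5:**
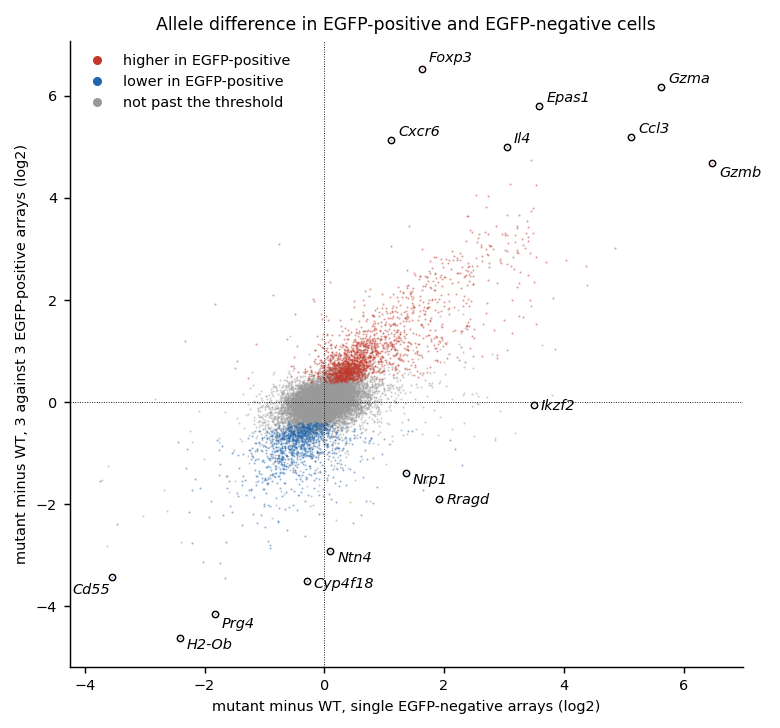
Each point is a gene: the difference between mutant-labelled and WT-labelled cells in the single EGFP-negative arrays (horizontal axis, log2) and in the EGFP-positive arrays (vertical axis, log2, means of 3 arrays). Red and blue genes passed the threshold in EGFP-positive cells; Gzma, Ccl3 and Gzmb lie high on both axes, Ikzf2 is near 0 on the vertical and at 3.498 on the horizontal axis, and Ntn4 and Cyp4f18 are low on the vertical axis only.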

How the data were processed

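RNA of sorted mouse CD4+ T cells was measured on 1-colour Affymetrix arrays. The authors deposited linear signal intensities, normalised together by RMA per the submitters' processing notes, with its version not given. Each intensity was turned into log2 here with no pseudocount. Of 45101 probe sets 64 controls were left out, and of the 45037 tested 34945 had 1 gene symbol in the platform annotation, 932 several and 9160 none here. A gene was read from its probe set with the highest mean log2 intensity.

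Differences came from limma 3.58.1 (R 4.3.3) with a mean for each of the 4 groups over all 8 arrays, empirical Bayes moderation and Benjamini-Hochberg adjustment over all probe sets, so that adjusted p-values in the text are limma's unless named otherwise. Residual degrees of freedom were 4 (7.72 after moderation), and the 3 arrays per group limit the precision. With 3 arrays on each side, permuting labels exactly reaches 0.1 at the lowest. Tested on simulated data for the same comparison over 45037 probe sets, the fit found 71.6% of changes of 2-fold and 97.0% of those of 4-fold, and made 12 calls among unchanged probe sets. The simulation changed 67 probe sets at each of these sizes, while 5734 passed in the data. It used independent normal noise with no outlying array, so these rates need not hold for the data.

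Named genes were the 20 with the largest called rise and the 20 with the largest called fall among those whose arrays did not overlap, and up to 6 per gene list. Members, lists and promoters shown were chosen with earlier results of these data known. The sex-linked genes and the test of the allele difference between sorts were added after the data were seen. Of 1206 list symbols 1086 were measured; the rest were not analysed here. Each title number begins with digits shared by 1 WT-labelled and 1 mutant-labelled EGFP-positive array and by no other of either group, but these arrays did not deviate together (correlations of 0.12, 0.046 and -0.10 between groups), so groups were not paired. Alternatives were a low-value filter, median centring, a pseudocount of 16, repeated quantile normalisation, a trended robust fit, the shared leading digits of the title numbers as a block and leaving out each array.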

Additional observations from a re-analysis of the deposited data

Results flagged for a closer look

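For 18 of 45037 probe sets the allele difference itself differed between the EGFP-positive and EGFP-negative arrays in limma (adjusted p under 0.05), a test in which each EGFP-negative group has 1 array assumed to vary like the others. The values rest on those single arrays, and the WT-labelled one was high in Xist (9.81). The value is the mutant minus WT difference in EGFP-positive arrays minus that in EGFP-negative arrays, on the log2 scale, and 7 named genes were among the 18. Foxp3, whose probe set goes against the WT label, had a value of 4.90, SE 0.28, adjusted p = 0.0044. Ikzf2 had -3.55, SE 0.21, adjusted p = 0.0044, being level between the EGFP-positive groups and higher in the mutant-labelled EGFP-negative array. The other Treg genes were Il2ra (-2.85, SE 0.28, adjusted p = 0.045), Tnfrsf4 (-2.62, SE 0.27, adjusted p = 0.045) and Cd83 (-3.67, SE 0.36, adjusted p = 0.045), each at least 4-fold higher in the mutant-labelled than in the WT-labelled EGFP-negative array. Rragd (-3.82, SE 0.36, adjusted p = 0.045) fell between EGFP-positive groups and was higher in the mutant-labelled EGFP-negative array. Cyp4f18 (-3.21, SE 0.34, adjusted p = 0.045) fell in EGFP-positive arrays and was low in both EGFP-negative arrays, while its other probe set differed by -0.03 between EGFP-positive groups. The tests share arrays, and these genes are not independent of the comparisons above.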

How the results depend on the processing

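The main counts of called probe sets were 3308 higher and 2426 lower. Under the low-value filter, median centring, the pseudocount of 16, repeated quantile normalisation and the trended robust fit the higher count ran from 3214 to 3571 and the lower from 2280 to 2487. Leaving out 1 array gave 2081 to 3791 higher and 1267 to 3765 lower, with the highest counts of both without WT-labelled array 2. Without WT-labelled array 1 they were 2081 and 1274, without mutant-labelled array 1 2089 and 1267, and the lower count was 1578 without WT-labelled array 3 and 1380 without mutant-labelled array 2. With the shared leading digits of the title numbers as a replicate block, which the pairing check did not bear out, 2706 were higher and 2000 lower, and 12 of 224 named genes lost the call (Ccr8, Cd28, Cd5, Ep300, Id3, Idi1, Ier5, Ifih1, Socs3, Sos1, Tnfrsf9 and Txk). The pseudocount ended 5 named calls (Ier5, Sit1, Tnfsf11, Tnfsf8 and Txk) and the trended robust fit 2 (Id3 and Sit1). Genes kept within 2-fold numbered 15542, and 8484 under the low-value filter, which tests fewer genes. No named result reversed. Of 224 named genes that passed, 170 passed in every leave-one-out fit and 54 lost the call in at least 1, namely 44, 2 and 33 without WT-labelled arrays 1, 2 and 3 and 40, 29 and 20 without mutant-labelled arrays 1, 2 and 3. Each EGFP-positive group has 3 arrays and each EGFP-negative group 1. WT-labelled array 3 differs from the design in Xist, and the Foxp3 probe set does not separate the WT-labelled sorts, so both labels rest on the submitters' titles.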
